A study of Mus musculus with 6 samples.

Results

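The genes described here encode the proteins of the cytosolic ribosome, measured by RNA-seq in the hindlimb gastrocnemius (GAS) muscles of Kvβ2 knockout (KO) and wildtype (WT) mice. They are the rows of the expression table whose symbol begins with Rps, Rpl or Rplp and a number, without the S6 kinases (Rps6k) and without the entries marked as pseudogenes. The rule took 85 of the 37979 rows. Of these, 30 are canonical proteins of the small (40S) subunit, 43 of the large (60S) subunit and 3 of the ribosomal stalk, 8 are paralogs, and 1, *Rps19bp1*, matches by its name but encodes a nucleolar protein that binds RPS19. Ribosomal proteins with other names, such as *Rpsa*, *Fau* and *Rack1*, were outside the rule and are given separately.

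The KO mice lacked Kvβ2, the potassium channel subunit encoded by *Kcnab2* (Kvβ2-/-, bred from Kvβ2+/- parents). The WT mice were littermates or age matched. Both groups were male, 20 weeks old and untreated, with 3 mice each and 1 library per mouse, named here by genotype and mouse number (WT1, WT7, WT8, KO1, KO7 and KO8). Values are FPKM, fragments scaled to the length of the transcript and to the mapped fragments of the library.

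A cytosolic ribosome joins a small subunit, which reads the mRNA, to a large subunit, which forms the peptide bond. Its proteins are made in matched amounts in dividing and resting cells alike, and most of their mRNAs begin with a C followed by a run of pyrimidines, the 5′ terminal oligopyrimidine (TOP) motif, through which mTOR signalling controls their translation. Striated muscle differs from most tissues in carrying *Rpl3l*, a paralog of *Rpl3*.

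*Kcnab2* was at 0.233, 0.10 and 0.11 FPKM in WT1, WT7 and WT8, and was listed at 0, 0.0151 and 0 FPKM in KO1, KO7 and KO8, which follows the labels at a level below the test's filter. Fragments assigned per library, read from the steps of the low FPKM values, came to about 19230000 to 20150000 in WT and 13960000 to 18180000 in KO muscle, so the KO libraries were the shallower ones. Muscle markers were abundant, summing to between 30700 and 44000 FPKM in WT and between 47800 and 51300 FPKM in KO libraries, although *Myh4*, *Tnnt3* and *Atp2a1* were listed at 0 in all 6 libraries. In bulk muscle, fewer cells of a type and less RNA per cell cannot be told apart.

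The summed level of the ribosomal protein genes overlapped between the genotypes, while single members lay on either side. Their summed FPKM was 17195, 16948 and 18249 in WT1, WT7 and WT8, and 17887, 17268 and 18933 in KO1, KO7 and KO8. The sums of the genotypes overlap, with means of 17464 ± 691 (SD, n = 3) in WT and 18030 ± 841 (SD, n = 3) in KO muscle. This was between 3.92% and 4.54% of all FPKM in the WT libraries and between 3.81% and 4% in the KO libraries. The canonical 40S genes summed to 7695 ± 276 FPKM in WT and 7825 ± 363 FPKM in KO muscle, and the canonical 60S genes to 8790 ± 350 and 8976 ± 515 FPKM (SD, n = 3 each). The 3 stalk genes summed to 403 ± 81.9 FPKM in WT and 693 ± 74.4 FPKM in KO muscle.

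Levels differed widely between members. The median tested member was at 189 FPKM, against 4.99 FPKM for the median of all tested genes, and 73 members averaged 100 FPKM or more. The most abundant was *Rps24*, at 896, 783 and 789 FPKM in WT1, WT7 and WT8 and at 676, 576 and 719 FPKM in KO1, KO7 and KO8, followed by *Rps27*, *Rpl4* and *Rpl24*. The row named *Rpl24* carries an identifier that the GENCODE annotation gives to *Zbtb11*, so its gene is uncertain and its annotated properties were left out. At the low end, *Rpl3* averaged 23.9 ± 3.81 FPKM in WT muscle and *Rpl29* lay between 18.5 and 27.0 FPKM across libraries. *Rpl7l1* was at 10.2 to 12 FPKM and *Rps19bp1*, not a ribosomal protein, at 4.85 to 6.94 FPKM. *Rps4y2*, which GENCODE lists as the transcribed processed pseudogene *Rps4l*, was at 0.308 to 1.10 FPKM. *Rpl10l*, a testis paralog, was listed at 0 in all 6 libraries, and *Rpl39l* was under the filter, which left 83 members for the test. Replicates were close, with a median coefficient of variation of 8.03% in WT and 7.39% in KO muscle, against 14.2% and 13.4% for all tested genes.

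**Figure D1:**
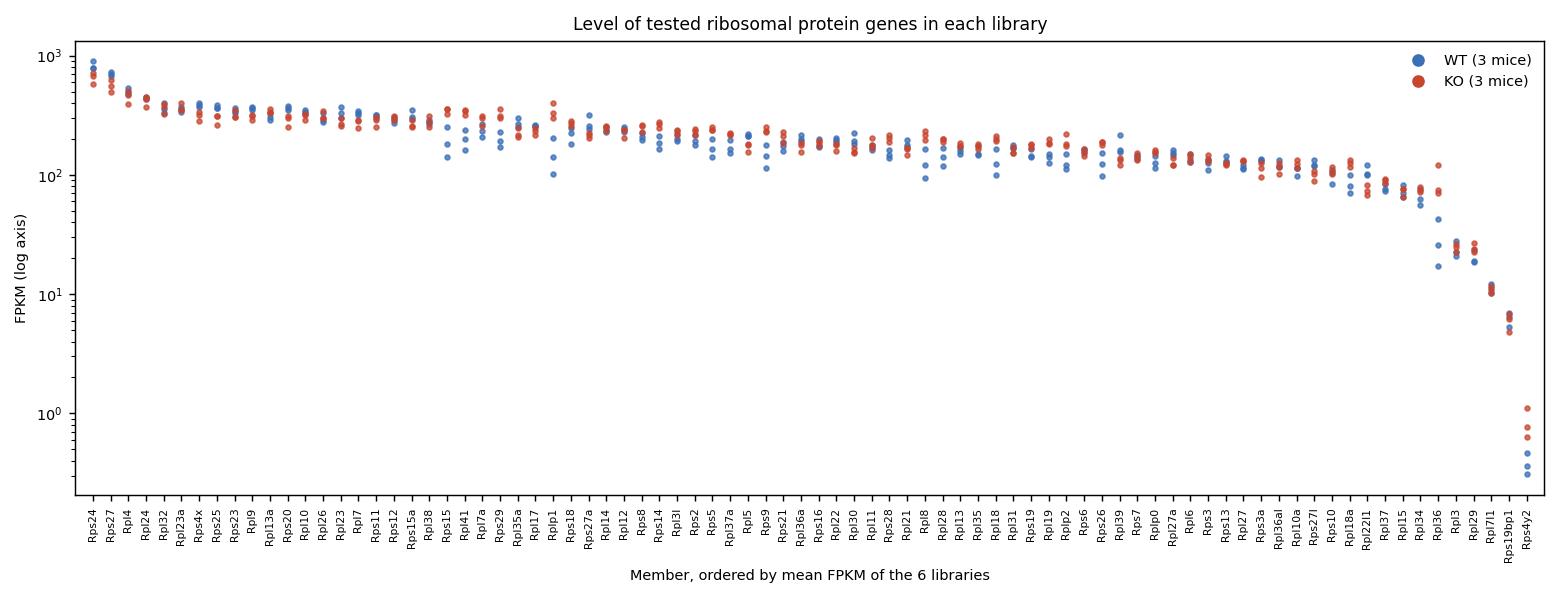
FPKM of 82 of the 83 tested members in each library on a log axis, ordered by mean level, with 1 point per mouse (blue WT, red KO, 3 mice each). Most members lie near their median of 189 FPKM, and only *Rpl3*, *Rpl29*, *Rpl7l1*, *Rps19bp1* and *Rps4y2* have means under 30 FPKM among those tested.

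No member passed the test between genotypes at an adjusted p under 0.05 (limma on log2(FPKM + 0.1), adjusted over the 12334 genes that averaged 0.5 FPKM or more). Of all genes tested, 0.251% passed as higher and 0.073% as lower in the KO mice, and the lowest adjusted p among the members was 0.0688. At an unadjusted p under 0.05, 22 of 83 members (26.5%) were higher and 15 (18.1%) lower in KO muscle, against 15.3% and 10.9% of all genes tested. The libraries of the genotypes did not overlap for 49 members: 26 (31.3%) were higher in every KO library than in every WT library and 23 (27.7%) were lower, against 18.3% and 16.2% of all genes. The shares were above the background in both directions, and the median log2 difference (KO minus WT) over the members was 0.04, against 0.01 over all genes. When limma weighted the libraries by their quality (array weights), 29 members (34.9%) passed as higher and 6 (7.23%) as lower, against 15.1% and 10.4% of all genes, so that the share of lower members was then below that of all genes.

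**Figure D2:**
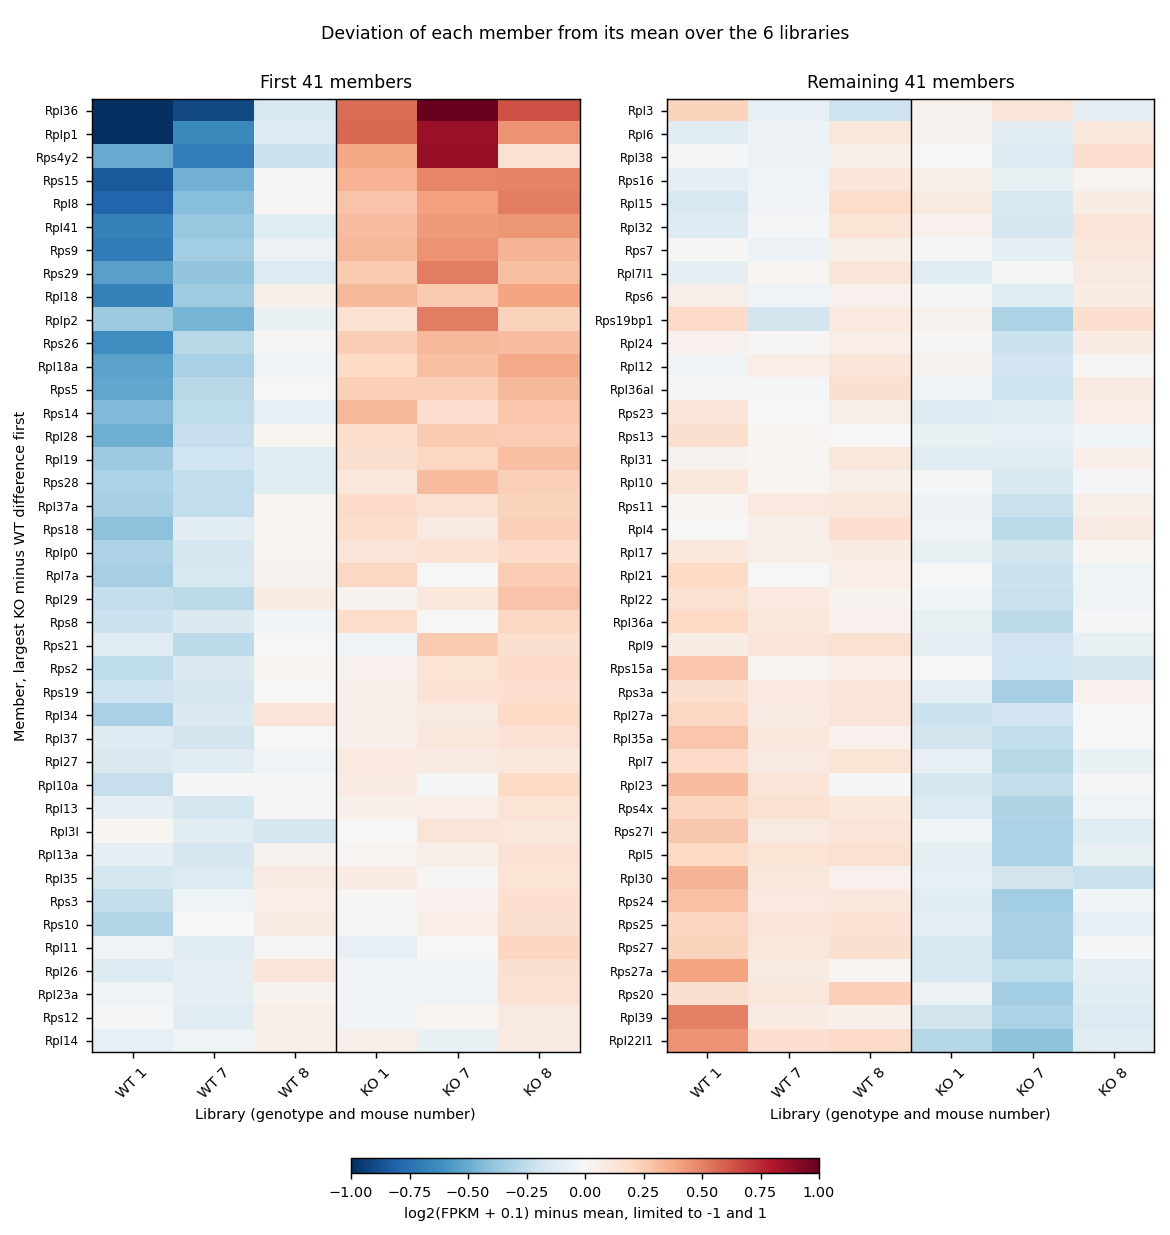
Deviation of log2(FPKM + 0.1) from each member's mean over the 6 libraries, with 82 of the 83 tested members as rows ordered by the KO minus WT difference and libraries as columns; red is above and blue below the mean, and colours stop at -1 and 1. Most members at the top of the left panel are lowest in WT1 and high in all 3 KO libraries, although *Rps4y2* is lowest in WT7. Most of those at the bottom of the right panel are the reverse, and those between are near 0 in all libraries.

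WT1 was often the library farthest from the KO libraries. It was the lowest WT library for 22 of the 26 members that were higher in KO muscle, and the highest WT library for 21 of the 23 that were lower. Together these are 87.8% of the 49 members, compared with 60.2% of the 4250 genes of the whole table whose genotypes did not overlap. Without WT1, 18 members (21.7%) were higher and 7 (8.43%) lower at an unadjusted p under 0.05, against 12.7% and 8.6% of all genes, so that the lower members were no longer above the background. Counted without overlap, 30.1% of members were still lower without WT1, against 21.9% of all genes. At an unadjusted p under 0.05, the lower count was 7 (8.43%) without WT7 and 5 (6.02%) without KO7, against 6.41% and 6.88% of all genes. Without WT8, KO1 and KO8 the lower share was 12%, 12% and 16.9%, against 8.71%, 10.9% and 8.48%. The share of higher members stayed above that of all genes in each case, at 20.5% against 11.8% without WT7 and 24.1% against 11.3% without KO7.

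Of the 30 canonical 40S genes, 11 (36.7%) were higher in KO muscle without overlap and 9 (30%) were lower, against 18.3% and 16.2% of all genes. Their median log2 difference was 0.03. *Rps15* (ENSMUSG00000063457, chromosome 10, 80292453 to 80294114 on GRCm38), a protein needed for export of the pre-40S particle from the nucleus, was at 142, 182 and 253 FPKM in WT1, WT7 and WT8 and at 325, 357 and 358 FPKM in KO1, KO7 and KO8. Its highest WT library lay below its lowest KO library, with a log2 difference of 0.89 (standard error 0.20, limma adjusted p = 0.0750). *Rps29*, a small zinc-binding protein of the 40S head, had the lowest p of the tested members. It was at 173, 191 and 229 FPKM in the WT libraries and at 302, 359 and 309 FPKM in the KO libraries. The difference was 0.72 on the log2 scale (standard error 0.14, limma adjusted p = 0.0688).

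The lower 40S genes had smaller differences. *Rps20* (ENSMUSG00000028234, chromosome 4, 3831334 to 3835665), a protein of the 40S head, was at 361, 349 and 381 FPKM in WT1, WT7 and WT8 and at 309, 253 and 299 FPKM in KO1, KO7 and KO8, a log2 difference of -0.35 (standard error 0.11, limma adjusted p = 0.125). *Rps27a* (ENSMUSG00000020460, chromosome 11, 29545846 to 29548109), made as a fusion with ubiquitin, was at 317, 257 and 245 FPKM in the WT libraries and at 216, 202 and 226 FPKM in the KO libraries, a log2 difference of -0.34 (standard error 0.13, limma adjusted p = 0.158). *Rps27* (ENSMUSG00000090733, chromosome 3, 90212522 to 90213651) was at 732, 676 and 701 FPKM against 560, 500 and 622 FPKM, a log2 difference of -0.33 (standard error 0.12, limma adjusted p = 0.143). In all 3 the genotypes did not overlap, and WT1 was the highest library for *Rps27a* and *Rps27*. *Rps6*, the substrate of the S6 kinases, was at 153 to 164 FPKM in WT and 145 to 166 FPKM in KO muscle, and these ranges overlap. *Rps19*, mutated in Diamond-Blackfan anaemia in people, was at 141 to 163 FPKM in WT and 169 to 183 FPKM in KO muscle (log2 difference 0.24, limma adjusted p = 0.191), a difference that turned to -0.03 and -0.02 after corrections for the GC content of exons and of coding sequence.

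Of the 43 canonical 60S genes, 11 (25.6%) were higher without overlap and 12 (27.9%) lower, against 18.3% and 16.2% of all genes. Their median log2 difference was 0.04. *Rpl36* (ENSMUSG00000057863, chromosome 17, 56613416 to 56614243) had the widest log2 difference of the 83 tested members. It was at 17.2, 25.6 and 42.8 FPKM in WT1, WT7 and WT8 and at 70.5, 122 and 74.6 FPKM in KO1, KO7 and KO8. The mean was 28.6 ± 13.0 FPKM in WT and 88.9 ± 28.3 FPKM in KO muscle (SD, n = 3), or 3.11-fold, and the log2 difference was 1.69 (standard error 0.34, limma adjusted p = 0.0700). The WT libraries themselves spread from 17.2 to 42.8 FPKM, and the log2 difference was 1.38 without WT1 and 2.03 without WT8. *Rpl8* (ENSMUSG00000003970, chromosome 15, 76904078 to 76906314), a protein close to the peptidyl transferase centre, was at 94.1, 121 and 164 FPKM in the WT libraries and at 198, 217 and 232 FPKM in the KO libraries. Again WT1 was lowest, and the log2 difference was 0.80 (standard error 0.20, limma adjusted p = 0.0802).

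Among the lower 60S genes the widest difference was that of *Rpl39* (ENSMUSG00000079641, chromosome X, 37082520 to 37085402), a short protein of the exit tunnel. It was at 214, 161 and 157 FPKM in WT1, WT7 and WT8 and at 134, 122 and 138 FPKM in KO1, KO7 and KO8. The log2 difference of -0.42 (standard error 0.14, limma adjusted p = 0.133) came to -0.28 without WT1, which was well above the other WT libraries. The proteins of *Rpl5* and *Rpl11* bind the 5S ribosomal RNA together and restrain MDM2. *Rpl5* was at 211 to 221 FPKM in WT and 154 to 183 FPKM in KO muscle, with no overlap (log2 difference -0.32, limma adjusted p = 0.123). *Rpl11* was at 163 to 178 FPKM in WT and 167 to 205 FPKM in KO muscle, and the ranges overlap. Whether these genes differ from each other was not tested.

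All 3 genes of the stalk, the part of the 60S subunit that recruits elongation factors, were higher in every KO library. This held for 18.3% of all genes tested. The coding sequences of all 3 have 55% or more GC. In that class 40.3% of all tested genes and 77.3% of members were higher without overlap. *Rplp1* (ENSMUSG00000007892, chromosome 9, 61913284 to 61914542) was at 101, 141 and 202 FPKM in WT1, WT7 and WT8 and at 329, 401 and 301 FPKM in KO1, KO7 and KO8, a log2 difference of 1.26 (standard error 0.25, limma adjusted p = 0.0700). *Rplp2*, its partner in the stalk dimer, was at 121, 112 and 149 FPKM in the WT libraries and at 173, 222 and 182 FPKM in the KO libraries, a log2 difference of 0.60 (limma adjusted p = 0.0809). *Rplp0*, the base of the stalk, was at 114, 125 and 144 FPKM against 153, 156 and 162 FPKM, a log2 difference of 0.31 (limma adjusted p = 0.156). The difference was thus widest for the gene of P1 and narrowest for that of P0, although none passed the test and the order among the 3 was not tested, and the value of *Rplp0* was -0.12 after a correction for the GC content of the exons.

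**Figure D3:**
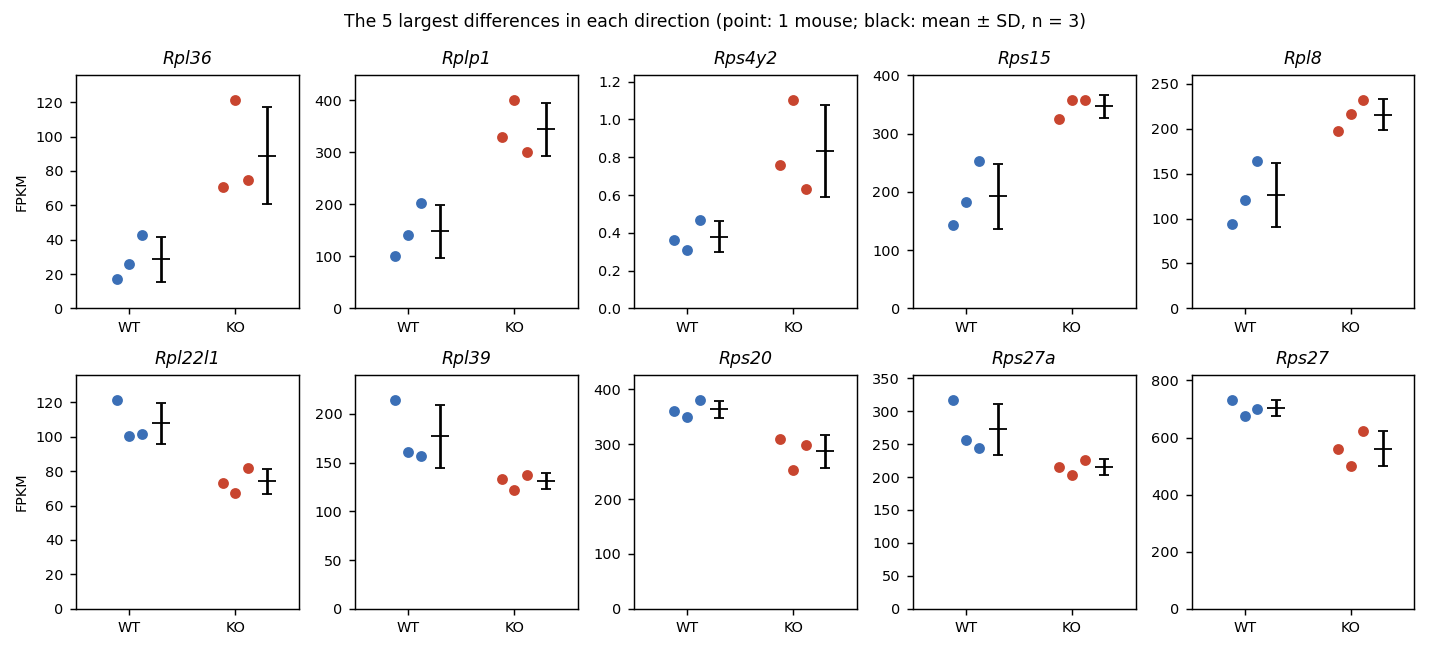
FPKM of the 5 members with the largest positive (top) and the 5 with the largest negative (bottom) log2 difference, on axes that start at 0, with 1 point per mouse and the mean ± SD (n = 3) in black. The genotypes do not overlap in any panel; the WT points of *Rpl36*, *Rplp1*, *Rps15* and *Rpl8* are spread widely, and *Rps4y2* is near 1 FPKM or less.

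The paralogs were compared with their canonical genes as log2 ratios within each library, which share the library's depth. *Rpl3l* (ENSMUSG00000002500, chromosome 17, 24727820 to 24736143) was at 219, 201 and 192 FPKM in WT1, WT7 and WT8 and at 216, 236 and 234 FPKM in KO1, KO7 and KO8. *Rpl3* (chromosome 15, 80077791 to 80091868) reached 28.2, 22.7 and 20.8 FPKM in the WT libraries and at 24.7, 26.3 and 22.4 FPKM in the KO libraries. The muscle paralog was thus 8.61 ± 0.763 times the level of *Rpl3* in WT and 9.38 ± 0.894 times in KO muscle (SD, n = 3), and made up 88.6% to 91.2% of the pair in the 6 libraries. The log2 ratios of the genotypes overlap (difference 0.12, exact two-sided permutation p = 0.5 over 20 assignments, adjusted p = 0.583 over 7 pairs). The log2 difference of *Rpl3l* itself was 0.17 (standard error 0.10, limma adjusted p = 0.332) and turned to -0.19 and -0.10 after corrections for exonic and coding GC content. With *Rpl3l* added, the pair came to 213 to 262 FPKM, close to the median member, where *Rpl3* alone is among the lowest.

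*Rpl22l1* (ENSMUSG00000039221, chromosome 3, 28805436 to 28807424), whose protein can take the place of RPL22, had the largest negative difference of the tested members. It was at 121, 100 and 102 FPKM in WT1, WT7 and WT8 and at 73.0, 67.5 and 82.0 FPKM in KO1, KO7 and KO8, a log2 difference of -0.54 (standard error 0.12, limma adjusted p = 0.0752). *Rpl22* itself was at 189 to 204 FPKM in WT and 158 to 181 FPKM in KO muscle, so that both genes were lower in every KO library. The ratio of *Rpl22l1* to *Rpl22* was 0.549 ± 0.0431 in WT and 0.430 ± 0.0270 in KO muscle (SD, n = 3). Its log2 value was lower in every KO library, by 0.35 on average (difference -0.35, exact two-sided permutation p = 0.1, the smallest that 3 against 3 allow, adjusted p = 0.233). The coding sequences of *Rpl22l1* and *Rpl22* differ in GC content, at 39.9% and 48.4%, and the ratio was not corrected for it.

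The remaining ratios varied less or rested on low values. *Rps27l* was 0.176 ± 0.00531 times *Rps27* in WT and 0.178 ± 0.0141 times in KO muscle (exact permutation p = 1). *Rpl36al* was 0.604 ± 0.0699 times *Rpl36a* in WT and 0.660 ± 0.0170 times in KO muscle (exact permutation p = 0.4), and *Rpl7l1* was 0.0337 ± 0.00335 and 0.0402 ± 0.00394 times *Rpl7* (exact permutation p = 0.2). *Rpl10* had no ratio because *Rpl10l* was listed at 0. *Rpl39l* was at 0.0735, 0.0747 and 0.0708 FPKM in WT1, WT7 and WT8 and at 0.504, 0.157 and 0.158 FPKM in KO1, KO7 and KO8, and *Rps4y2* (ENSMUSG00000063171, chromosome 6, 148354656 to 148355598) measured 0.365, 0.308 and 0.468 FPKM in WT libraries against 0.761, 1.10 and 0.630 FPKM in KO libraries (log2 difference 0.94, standard error 0.34, limma adjusted p = 0.148). Both were higher in every KO library (exact permutation p = 0.1 for each ratio), at low levels between 0.0708 and 1.10 FPKM. Paralogs and processed copies share sequence with their canonical genes, and how the counting divided reads between them is not known here, so the low ones are uncertain.

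**Figure D4:**
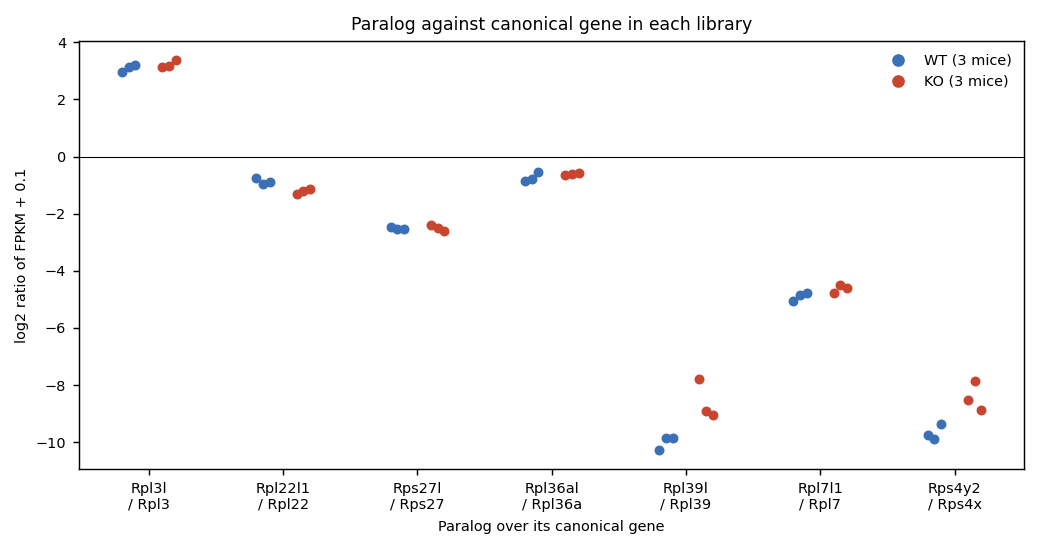
Log2 ratio of paralog to canonical gene, each as FPKM + 0.1, for the 7 pairs in every library (blue WT, red KO, 3 mice each); 0 marks equal levels. *Rpl3l* lies between 2.95 and 3.37 above *Rpl3* in all libraries, *Rpl22l1* is lower against *Rpl22* in every KO library, and the pairs at the bottom rest on very low paralog values.

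The side on which a member lay followed the base composition of its coding sequence. Across 81 tested members with an annotated coding sequence, which share the libraries and are not independent, Spearman's rho between the coding GC content and the log2 difference was 0.86. Across all 11133 tested genes with a coding sequence it was 0.65. With the GC content of whole exons, rho was 0.73 across 82 members and 0.70 across 11984 tested genes. For length it was 0.02 across members with coding length and -0.29 with exonic length, against 0.06 and -0.09 across all tested genes. Of the 22 members with under 50% GC, 18 were lower in every KO library and 0 higher, with a median log2 difference of -0.28. Of the 22 with 55% or more, 17 were higher and 0 lower, with a median of 0.49. The stalk genes *Rplp0*, *Rplp2* and *Rplp1*, at 56.05%, 56.81% and 58.19%, fell in this class. The 37 in between had 8 higher (21.6%), 5 lower (13.5%) and a median of 0.04. Of all tested genes in that class, 13.3% were higher and 8.88% lower without overlap. All tested genes showed the same order, with medians of -0.23, 0.04 and 0.35 in these classes, and non-overlapping shares of 37.7% lower under 50% GC and 40.3% higher at 55% or more, where the members had 81.8% and 77.3%.

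To show how far the members differ in composition, the first 90 coding bases are printed for *Rpl36* and *Rpl18*, among the tested ribosomal proteins of highest coding GC content, and for the 3 of lowest, from GENCODE vM21 transcripts on GRCm38, with G and C in capitals. *Rpl36* (61.6% GC over its whole coding sequence) is read on the plus strand at chr17:56613588-56613677, in 1 exon. The other 4 stretches cross an intron: *Rpl18* on the plus strand within chr7:45718137-45719339, *Rpl22l1* on the plus strand within chr3:28805535-28806580, *Rpl30* on the minus strand within chr15:34442712-34443045 and *Rpl39* on the minus strand within chrX:37084002-37085127.
Rpl36: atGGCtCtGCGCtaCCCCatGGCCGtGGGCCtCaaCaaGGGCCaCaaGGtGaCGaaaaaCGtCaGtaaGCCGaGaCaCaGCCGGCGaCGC
Rpl18: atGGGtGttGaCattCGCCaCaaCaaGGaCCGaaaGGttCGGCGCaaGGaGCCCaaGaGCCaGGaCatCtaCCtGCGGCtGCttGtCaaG
Rpl22l1: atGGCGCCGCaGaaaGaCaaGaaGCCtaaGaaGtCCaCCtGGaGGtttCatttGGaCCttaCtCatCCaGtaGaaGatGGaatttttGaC
Rpl30: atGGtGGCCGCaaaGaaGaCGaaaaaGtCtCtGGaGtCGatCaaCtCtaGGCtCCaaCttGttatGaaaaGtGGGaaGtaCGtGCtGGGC
Rpl39: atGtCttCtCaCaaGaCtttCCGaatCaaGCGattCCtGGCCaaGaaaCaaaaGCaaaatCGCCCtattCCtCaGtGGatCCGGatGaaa
In these 90 bases *Rpl36* and *Rpl18* hold 56 and 51 G or C, and *Rpl22l1*, *Rpl30* and *Rpl39* hold 41, 44 and 40. The first 2 genes were higher and the last 3 lower in every KO library.

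**Figure D5:**
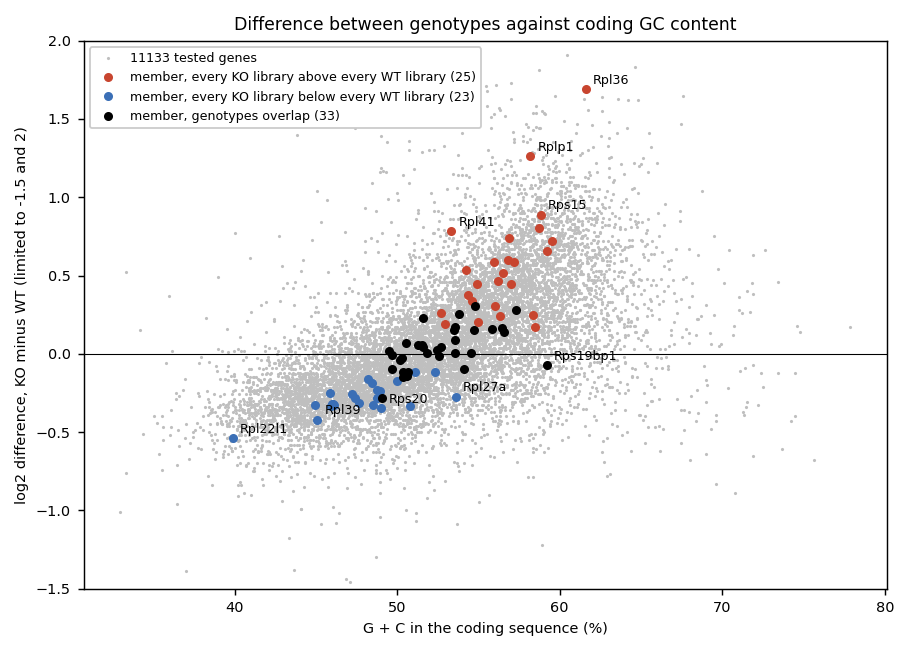
KO minus WT log2 difference against coding GC content for 11133 tested genes (grey) and 81 members, coloured by whether the genotypes overlap; the vertical axis stops at -1.5 and 2. Members rise with coding GC content as the grey genes do, with medians of -0.28 under 50% and 0.49 at 55% or more, against -0.23 and 0.35. Among the members *Rpl22l1* at 39.9% GC lies lowest, *Rpl36* at 61.6% highest, and *Rps19bp1* at 59.2% near 0.

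The composition also ordered the libraries within a genotype. The median deviation of the 22 GC-rich members minus that of the 22 GC-poor members was -0.61, -0.36 and -0.08 on the log2 scale in WT1, WT7 and WT8, and 0.25, 0.52 and 0.32 in KO1, KO7 and KO8. All WT libraries lay below all KO libraries, but WT8 was nearer to KO1 than to WT1. When each library was corrected by a curve on coding GC content, a setting chosen after seeing the data, 18 of 25 members with an annotated coding sequence were still higher in every KO library and 11 of 23 still lower, and the log2 difference was 1.28 for *Rpl36*, 0.90 for *Rplp1*, 0.50 for *Rps15*, 0.42 for *Rpl8*, -0.16 for *Rpl22l1* and -0.16 for *Rpl39*. The members in these 2 counts had already been picked for not overlapping. Among all 81 members in the corrected fit, 19 (23.5%) were higher and 13 (16%) lower without overlap, against 10.7% and 11.3% of all genes. The counts at an unadjusted p under 0.05 were then 15 higher (18.5% of members, 7.71% of all genes) and 3 lower (3.70% and 7.79%). With the GC content of whole exons instead, 13 were higher (15.9% of members, 5.72% of all genes) and 12 lower (14.6% and 5.46%). Counted at this p, the lower members thus lay below the background after the coding GC correction and above it after the exonic one. Counted without overlap they lay above it after both, with 23 (28%) against 9.53% of all genes after the exonic one. The differences of *Rpl36*, *Rplp1* and *Rps15* were 1.03, 0.80 and 0.26 after the exonic correction.

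Members with a pyrimidine run at the start of the transcript lay on both sides. In the first 10 bases of the chosen GENCODE transcript, 22 of 81 members (27.2%) had a C followed by at least 4 more C or T, read on the transcript's own strand, against 11% of all tested protein-coding genes. Of the 22, 9 (40.9%) were higher in every KO library, 6 (27.3%) were lower and 7 overlapped, where 20.1% and 18.7% of the 1219 tested genes with such a start were higher and lower. Annotated starts can lie some bases from the true cap, so a start without the run is no sign that the mRNA lacks it. The first 30 bases are printed for the 3 members with such a run whose difference was most positive and the 3 whose difference was most negative, with the part of the run that lies inside the first 10 bases in capitals. Some runs go on past base 10, so the capitals do not give their length.
Rpl36: CTTCCTgtcccggccgccatcggagagcat
Rplp1: gatCTTTTCCtcagctgccgccaaggtgct
Rps15: gtaCTTCCTTttccgagtaaccgccaagat
Rps27: gCTCCTTTCCggcggtgacgacctccctac
Rps24: CTCTTTTCCTcctctccagctccggcgccg
Rpl30: CCTTTCTCgctccccggccatcttggcggc
These starts lie at chr17:56613416-56613445 (plus strand), chr9:61914513-61914542 (minus), chr10:80292453-80292482 (plus), chr3:90213622-90213651 (minus), chr14:24490718-24490747 (plus) and chr15:34443193-34443222 (minus) on GRCm38, in that order.

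The members shared other features that the rule did not use. Their coding sequences were short, with a median of 453 bases against 1340 for all tested genes. Of 81 protein-coding members, 29 (35.8%) held at least 1 small nucleolar RNA gene, which guide modification of ribosomal RNA, against 1.73% of all tested protein-coding genes. The median log2 difference was 0.00 for the 29 host genes and 0.12 for the other 52. The members were spread over 19 chromosomes, with 14 on chromosome 7 and 4 on X.

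The 3 ribosomal proteins examined outside the symbol rule had no member passing the test and a median log2 difference of 0.33. *Fau*, whose product carries RPS30, was at 66.5, 70.4 and 80.0 FPKM against 98.6, 105 and 102 FPKM (log2 difference 0.50, limma adjusted p = 0.0734). *Rpsa* and *Rack1* (listed as *Gnb2l1*) overlapped between genotypes, with log2 differences of 0.33 and 0.06.

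None of the other genes of the pathway passed the test either, and the counts that follow are at an unadjusted p under 0.05, which 15.3% of all genes tested reached as higher and 10.9% as lower. Of 14 elongation factors and other TOP mRNAs, 2 (14.3%) were higher and 3 (21.4%) lower. *Eef2*, the translocation factor, was at 150 to 251 FPKM in WT and 301 to 365 FPKM in KO muscle, and *Tpt1* at 3068 to 3384 FPKM in WT and 2303 to 2806 FPKM in KO muscle. Of 57 ribosome biogenesis factors, 7 (12.3%) were higher and 9 (15.8%) lower, with a median log2 difference of -0.10. *Rpf2*, which loads the 5S particle, had a difference of -0.52 and *Bop1*, a 60S processing factor, 0.67. Of 15 genes of RNA polymerase I and rDNA transcription, 2 (13.3%) were higher and 2 (13.3%) lower. Of 21 genes of mTOR and TOP mRNA control, 6 (28.6%) were higher and 5 (23.8%) lower, with *Rheb*, the activator of mTORC1, at 51.6 to 62.8 FPKM in WT and 35.4 to 45.3 FPKM in KO muscle, and *Sesn2*, which restrains mTORC1, at 0.320 to 0.573 and 0.745 to 0.841 FPKM. Of 10 ribosome quality control genes, 3 (30%) were higher and 2 (20%) lower. The genes named from these lists were picked from among the larger differences and do not stand for the rest of their lists. *Rheb* (log2 difference -0.48) and *Sesn2* (0.77) had neither the largest fall nor the largest rise of the mTOR list. The log2 differences of that list ran from -0.574 to 1.484.

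The mitochondrial ribosomal proteins, which build a separate ribosome from nuclear genes, gave a comparison of similar size. Of 79 tested, 13 (16.5%) were higher and 10 (12.7%) lower at an unadjusted p under 0.05, with a median log2 difference of -0.02. In the GC classes their medians were -0.23 (19 genes), 0.00 (27 genes) and 0.13 (29 genes), where the cytosolic members had -0.28, 0.04 and 0.49. Whether the cytosolic and mitochondrial genes differ in this was not tested.

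Of the markers of muscle and other cell types, 0 reached an adjusted p under 0.05 by limma, and their part in the differences above was not tested. Of the 11 muscle markers tested, 5 (45.5%) were higher at an unadjusted p under 0.05 and 0 lower, against 15.3% and 10.9% of all genes tested. The counts that follow are at the same p and stand beside the same shares of all genes. The 4 adipocyte markers (3 of them, 75%, higher) summed to 3.43 to 17.0 FPKM in WT and 16.5 to 78.5 FPKM in KO libraries. Their sum was highest in KO7, and the ranges overlap. The 3 red blood cell markers found (2 of them, 66.7%, higher) summed to 64.9 to 98.2 FPKM in WT and 113 to 228 FPKM in KO libraries. Of 5 fibroblast markers 1 (20%) was higher, and of 6 endothelial markers 1 (16.7%) was lower. Among 4 tested leukocyte markers, 3 Schwann cell markers and 1 satellite cell marker, 0 reached an unadjusted p of 0.05 in either direction by limma.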

How the data were processed

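Total RNA from GAS muscles was made into stranded mRNA libraries and sequenced as read pairs. Per the labels and the study's methods, the authors used TopHat to map reads to GRCm38 and Cufflinks to quantify genes (versions and annotation not given in the sources used here), and deposited FPKM values for 3 WT and 3 KO mice. FPKM are not counts. The depth behind them was estimated from their low values, 87.7% to 91.8% of which were whole numbers of fragments within 0.15, and its counting error sets the precision of low genes.

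Genes averaging 0.5 FPKM or more were tested on log2(FPKM + 0.1) with limma 3.58.1 (R 4.3.3) with a variance trend, KO against WT, Benjamini-Hochberg adjusted over all 12334. The procedure was tested on simulated data. A fold change on this scale understates that of low genes. Paralog ratios were compared by exact two-sided permutation tests over samples (Python 3.11.15). Positions, coding sequences and GC content came from GENCODE vM21, which held 32934 of the 37979 identifiers.

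The members and gene lists were chosen with earlier results of these data known. Genes were named by rule: the 5 highest and 5 lowest in level, the 5 largest differences in each direction, the paralogs and their canonical genes, 8 core proteins (*Rplp0*, *Rplp1*, *Rplp2*, *Rps6*, *Rpl5*, *Rpl11*, *Rps19*, *Rps27a*), any member passing the test, and *Kcnab2*. *Rps29*, *Rpl18*, *Rpl30* and the members of other lists beyond the largest differences were added after their values were seen. Alternatives were the pseudocount, the filter, scaling, variance model, array weights, a replicate block, GC content, length, shared symbols and leaving out each library. Results for some genes and sequences are not reported here.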

Additional observations from a re-analysis of the deposited data

How the results depend on the processing

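No member passed an adjusted p under 0.05 in limma under 15 of the 16 alternatives. With array weights 29 were higher (34.9%, against 15.1% of all genes) and 6 lower (7.23%, against 10.4%). At an unadjusted p under 0.05, 34 were then higher (41%, against 22.5% of all genes) and 15 lower (18.1%, against 18.8%). The median log2 difference of the members with array weights was 0.12. At an unadjusted p under 0.05 the members that were higher numbered 13 after the correction for exonic GC content (15.9%, against 5.72% of all genes). Those that were lower numbered 3 after the correction for coding GC content (3.7%, against 7.79%) and 7 with a replicate block (8.43%, against 8.35%). Without 1 library each, from 17 to 27 were higher (20.5% to 32.5%, against 11.3% to 15.5% of all genes). From 5 to 14 were then lower (6.02% to 16.9%, against 6.41% to 10.9%). The replicate block rests on mouse numbers that do not pair the samples (correlations of same-numbered deviations of -0.03, -0.08 and 0.03). It left the members' adjusted calls at 0 and gave 17 higher at an unadjusted p under 0.05 (20.5%, against 14.2% of all genes). Members higher without overlap numbered 15 after the exonic GC correction (18.3%, against 8.95% of all genes). Members lower without overlap numbered 13 after the coding GC correction (16%, against 11.3% of all genes). The median log2 difference of the members was -0.065 after the exonic GC correction, -0.033 after the length correction, and between -0.003 and 0.087 without 1 library each. Of 31 named members fitted, 11 changed the sign of their log2 difference under some alternative, always at an adjusted p above 0.05. After the exonic GC correction the difference was -0.102 for *Rpl11*, -0.231 for *Rpl29*, -0.068 for *Rpl3*, -0.188 for *Rpl3l*, -0.118 for *Rplp0* and -0.026 for *Rps19*. After the coding GC correction it was 0 to 3 decimals for *Rpl11*, -0.032 for *Rpl29*, 0.007 for *Rpl36al*, -0.101 for *Rpl3l*, 0.054 for *Rpl7l1*, -0.018 for *Rps19* and 0.043 for *Rps6*. After the length correction it was -0.02 for *Rpl3*, and with array weights 0.021 for *Rpl36al*, 0.007 for *Rpl7l1*, 0.201 for *Rps19bp1* and 0.05 for *Rps6*. Without 1 library each it ranged from -0.14 to 0.002 for *Rpl24*, from -0.051 to 0.167 for *Rpl3*, from -0.085 to 0.029 for *Rpl7l1*, from -0.182 to 0.067 for *Rps19bp1* and from -0.091 to 0.008 for *Rps6*, and the log2 ratio of *Rps27l* to *Rps27* differed by -0.049 to 0.066. The causes were not tested. Array weights also brought 12 of the named members past an adjusted p of 0.05, where 15.1% of all genes passed as higher and 10.4% as lower. The 3 mice per genotype limit these comparisons, since an exact permutation test of 3 against 3 cannot go below 0.1, and the depth limits the genes near 1 FPKM.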

Other observations

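The table also holds 155 ribosomal protein entries marked as pseudogenes, which the comparison above leaves out. They summed to 134, 162 and 170 FPKM in WT1, WT7 and WT8 and to 198, 176 and 194 FPKM in KO1, KO7 and KO8, between 0.782% and 1.11% of the summed FPKM of the members. Between 110 and 122 of them were listed at 0 in each library, and 24 had a mean of at least 0.5 FPKM. *Rpl34-ps1* was by far the highest, at 56.5, 63.2 and 61.8 FPKM in the WT libraries and 86.1, 70.7 and 76.6 FPKM in the KO libraries, close to *Rpl34* itself (55.5, 63.0 and 76.0 FPKM in WT, 72.2, 74.0 and 79.8 FPKM in KO). *Rpl28-ps1* was at 3.78, 6.35 and 6.31 FPKM in WT and 13.8, 9.89 and 9.87 FPKM in KO libraries (log2 difference 1.03, limma adjusted p = 0.0750). Both entries were higher in every KO library and were chosen after their values were seen. How reads were divided between such copies and their parent genes is not given in the sources used here.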
